A study of Mus musculus with 4 samples.

Results

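Deaf1 is a transcription factor whose DNA-binding SAND domain is known to recognise short sites built around the letters TTCG, often several of them close together. The sites at issue here are those that lie at the end of a single protein-coding gene, where a peak can be given to 1 gene and not shared with a neighbour. Of the 1545 regions of the authors' combined peak list on chromosomes 1 to 19 and X, 906 (58.6%) lay within 1 kb of a start or end of exactly 1 protein-coding gene. Another 343 lay at the ends of 2 or more genes and 296 at no gene end. Within that list, the rule used position and the gene table only, and not the strength of the regions or the letters under them. The list itself holds only regions called as peaks, and members were chosen with earlier results of these data known. The 906 regions belonged to 873 genes, of which 842 had 1 region, 29 had 2 and 2 (Eif4g3 and Crebbp) had 3.

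The cells were C2C12, an established line of mouse myoblasts, which are muscle precursor cells that divide in growth medium and can fuse into muscle fibres. They were grown in serum-containing medium, and the labels name no treatment and no change of genotype. The 4 libraries were 2 made with an antibody against Deaf1 and 2 inputs without antibody. Nothing in the labels says whether the 2 Deaf1 libraries came from separate cultures, so a difference between them may be technical. There was no second condition, so every value below is a level and no change in binding was measured.

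Gene promoters are the stretches around a transcription start where general and gene-specific factors assemble. Promoters of genes that all cells use, such as those for ribosomes and proteasomes, are usually rich in CpG (C followed by G) and often carry sites for ETS factors, a large family that recognises GGAA. Deaf1 has been described as both a repressor and an activator at promoters. The series' title links it to FOXO factors, autophagy and muscle regeneration.

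The sequences of 8 promoters are shown first because they hold the letters on which the results turn. These are clusters of TTCG at 3 very strong regions and the heptamer CCGGAAG at 4 weaker ones. The promoter stretch read at 1 strong region holds neither, but the summits of that region lie outside the stretch. Each is the 200 bases before a RefSeq transcription start on GRCm38.p6, read 5′ to 3′ in the direction of the gene, from the strand named. In the first 3, capitals mark TTCG or its reverse complement CGAA. Mark2 (a kinase that acts on microtubule-binding proteins) and Commd3 (a subunit of the Commander complex of endosomal sorting) are the strongest with at least 2 TTCG in the printed bases. Tmem80, a membrane protein gene, is shown because its region also covers a listed start of Deaf1.
Mark2, chr19:7341861-7342060, minus strand: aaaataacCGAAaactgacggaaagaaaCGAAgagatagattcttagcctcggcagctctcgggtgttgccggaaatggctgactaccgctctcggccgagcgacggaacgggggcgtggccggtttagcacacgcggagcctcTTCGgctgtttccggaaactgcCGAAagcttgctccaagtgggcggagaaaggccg
Commd3, chr2:18672235-18672434, plus strand: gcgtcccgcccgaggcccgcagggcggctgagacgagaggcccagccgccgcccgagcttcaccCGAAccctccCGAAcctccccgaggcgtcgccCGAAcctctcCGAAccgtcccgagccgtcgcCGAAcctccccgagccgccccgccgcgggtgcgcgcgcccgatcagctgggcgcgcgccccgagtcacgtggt
Tmem80, chr7:141327930-141328129, plus strand: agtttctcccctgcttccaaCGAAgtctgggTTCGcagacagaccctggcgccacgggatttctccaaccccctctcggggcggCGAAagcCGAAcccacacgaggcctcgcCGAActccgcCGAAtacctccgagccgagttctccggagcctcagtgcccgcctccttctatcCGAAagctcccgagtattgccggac

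In the next 5, capitals mark CCGGAAG or its reverse complement CTTCCGG. Rtf2 (a replication fork factor), Rps21 (a protein of the small ribosomal subunit) and Dmap1 (a subunit of chromatin complexes) are the strongest with at least 2 of these heptamers in the printed bases, and Atg101 (a subunit of the ULK1 complex that starts autophagy) is the autophagy gene with 2. Ptbp2, a splicing regulator, is the strongest with no TTCG in its 300-base window, and it has no heptamer either, so it has no capitals. Its summits lay 53 bp (replicate 1) and 64 bp (replicate 2) after the listed start, outside that window. The heptamer and the examples chosen by it were picked after the letters of these promoters had been seen.
Rtf2, chr2:172440378-172440577, plus strand: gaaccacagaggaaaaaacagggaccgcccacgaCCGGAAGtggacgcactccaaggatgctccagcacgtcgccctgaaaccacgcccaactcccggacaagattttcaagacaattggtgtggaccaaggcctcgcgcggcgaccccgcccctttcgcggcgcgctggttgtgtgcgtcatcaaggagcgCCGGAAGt
Rps21, chr2:180257179-180257378, plus strand: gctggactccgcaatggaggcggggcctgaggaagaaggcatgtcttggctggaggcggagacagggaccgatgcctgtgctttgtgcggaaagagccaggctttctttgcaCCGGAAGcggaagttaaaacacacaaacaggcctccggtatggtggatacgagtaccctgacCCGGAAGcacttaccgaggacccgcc
Dmap1, chr4:117682226-117682425, minus strand: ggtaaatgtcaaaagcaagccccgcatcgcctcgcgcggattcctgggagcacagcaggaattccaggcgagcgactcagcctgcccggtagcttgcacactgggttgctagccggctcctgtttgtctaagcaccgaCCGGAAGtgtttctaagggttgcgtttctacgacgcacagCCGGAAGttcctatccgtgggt
Atg101, chr15:101284101-101284300, plus strand: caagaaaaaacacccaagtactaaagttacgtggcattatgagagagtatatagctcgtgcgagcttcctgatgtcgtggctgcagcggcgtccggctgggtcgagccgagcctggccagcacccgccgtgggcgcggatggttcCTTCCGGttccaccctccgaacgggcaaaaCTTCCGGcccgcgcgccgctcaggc
Ptbp2, chr3:119783389-119783588, minus strand: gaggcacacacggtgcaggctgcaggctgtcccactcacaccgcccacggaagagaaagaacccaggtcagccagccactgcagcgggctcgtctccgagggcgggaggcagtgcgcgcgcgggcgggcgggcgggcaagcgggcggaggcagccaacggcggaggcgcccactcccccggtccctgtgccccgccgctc

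The regions sat on gene starts and hardly ever on the far ends of genes. Strand was known for the genes of 728 regions, through the table of promoter sequences, which covers 17274 of 21631 protein-coding genes. Of the 725 regions within 1 kb of only 1 of the gene's ends, 716 (98.8%, 95% exact binomial interval 97.7 to 99.4, counting error only) were at the start and 9 at the end. A further 4 regions reached both ends of a short gene. For 177 regions the strand was not in the table.

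Within the 716 regions at a start, the summit (the base with most ChIP fragments) was centred just before the first transcribed base. Its median position was −8 bp from the start in both libraries, with quartiles at −49 and 40.25 bp in replicate 1 and at −48 and 51.25 bp in replicate 2. Summits within 50 bp of the start numbered 379 (52.9%) in replicate 1 and 363 (50.7%) in replicate 2. Within 250 bp there were 597 (83.4%) and 595 (83.1%). The summit was upstream of the start at 409 regions (57.1%) in replicate 1 and 403 (56.3%) in replicate 2. The 2 libraries placed the summit of the same region a median of 11 bp apart, and within 50 bp at 835 of 906 regions (92.2%).

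**Figure D1:**
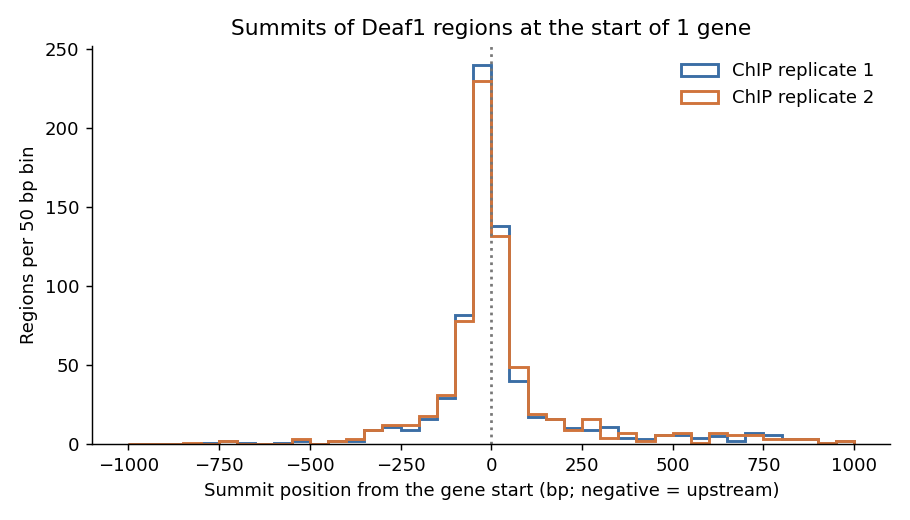
Number of regions per 50 bp bin (vertical axis) against the position of the summit relative to the start of the gene in bp (horizontal axis, negative upstream), for the 716 regions at a gene start, in replicate 1 and replicate 2. Both outlines peak in the bin just before the start, with a median of −8 bp in each library, and the few summits farther than 1 kb are not drawn.

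The 9 regions at a far end were weaker than those at starts, with median fold enrichments of 5.10 in replicate 1 and 7.18 in replicate 2 against 7.50 and 8.42 at starts. Fold enrichment is the authors' ratio of ChIP fragments to the local background at the summit, with 1 added to each of the 2 numbers. The 9 genes were 4933440N22Rik, Bad, Commd3, Eef1b2, Fau, Gm46933, Krt10, Mast3 and Zfp36. Only at Krt10, a keratin of skin epithelium, did the authors' score of the pair of libraries pass 540, with a score of 716, 10.2-fold in replicate 1 and 9.74-fold in replicate 2. A score of 540 stands for an irreproducible discovery rate (IDR) of 0.0501, the estimated chance that a region's rank does not repeat between replicates. At 2 of the 9, the replicate 2 summit lay inside another protein-coding gene with a listed start within 1 kb, Hnrnpf at 4933440N22Rik and G3bp2 at Gm46933, both of which encode RNA-binding proteins. The nearest end of a second protein-coding gene was 1175 bp from the region at Fau, 1242 bp at Eef1b2 and 1331 bp at Commd3. It was 1702 bp away at Mast3, 1930 bp at Bad and 3012 bp or more at the others. The 4 regions spanning both ends were at Pigyl, Rps21, Ube2m and Znhit2, and their median folds were 15.8 and 23.8.

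The word "exactly" rests on the gene table, which gives 1 span per gene. At 22 regions (2.43%) a listed internal start of another protein-coding gene lay within 1 kb, and at 145 regions (16%) an end of a long noncoding RNA gene did. The Tmem80 region is the strongest example. It ran over chr7:141325566-141330465 and its summits lay 32 bp (replicate 1) and 48 bp (replicate 2) after the Tmem80 start, with 34.6-fold and 41.4-fold enrichment. A listed internal start of Deaf1, on the minus strand at base 141327725, lies inside the same region and 453 bp from the replicate 2 summit, so this site cannot be given to Tmem80 alone. The next gene end was a median of 11354.5 bp away, and at 88 regions it lay between 1 and 2 kb.

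The 1 kb limit split regions of similar strength. Just inside it were regions at Ercc4 (998 bp, 5.00-fold and 7.45-fold in replicates 1 and 2), Pdss1 (986 bp, 7.70-fold and 10.4-fold) and Noc3l (982 bp, 8.21-fold and 11.0-fold). Just outside were regions near Mtif2 (1001 bp, 11.8-fold and 6.76-fold), Dcaf10 (1002 bp, 6.78-fold and 8.42-fold) and Fam207a (1005 bp, 9.75-fold and 11.0-fold). The second gene was just too far at Psmg1, whose next gene end was 1003 bp away. It was just near enough at the pair Wfdc21 and Heatr6, at 988 bp, which therefore count as 2 genes.

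Most of the regions were narrow and of moderate height, and a small number stood far above the rest. The median width was 186 bp (96 to 6621), and 857 regions consisted of 1 peak in each library. Median fold enrichment was 7.50 in replicate 1 (interquartile range 5.95 to 9.86, full range 2.94 to 40.7) and 8.42 in replicate 2 (6.42 to 11.3, full range 2.91 to 53.7). Summits held a median of 24 fragments in replicate 1 and 32 in replicate 2, numbers recovered from the deposited fold and p. Both folds reached 10 at 146 regions and 20 at 24. The 49 regions wider than 1 kb had medians of 21.3 and 27.4.

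Regions at 1 gene were intermediate in strength between the other classes. Those at no gene end had median folds of 6.66 and 7.69 in replicates 1 and 2, and those at 2 or more genes 7.84 and 8.83. The share with a score of at least 540 was 27.4% at no gene end, 40.5% (367 regions) at 1 gene and 46.6% at 2 or more genes. The steps between the classes were smaller than the interquartile range within a class, and regions of 1 pair of libraries are not replicates, so no test was made.

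The strongest 6 regions were high in both libraries. Tada1, a subunit of the SAGA coactivator complex, had 39.1-fold enrichment with 141 fragments in replicate 1 (119 to 166 by the exact Poisson interval at 95%) and 53.7-fold with 165 in replicate 2 (141 to 192). Ski, a corepressor of TGF-beta signalling, had 40.7 and 51.5. Zc3h4, a zinc finger protein that limits noncoding transcription, had 40.0 and 46.2. Mark2 had 36.4 and 42.7, and Commd3 had 36.05 and 43.1. Creb1, the cAMP-responsive transcription factor, had 33.6 and 45.1. All 6 were higher in replicate 2, and their order differed between the libraries.

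The highest score fell on other regions. The 6 highest were at Wac (887), Znhit2 (881), Atxn7l1 (877), Rbfox2 (873), Yipf6 (871) and Ppm1l (870), each with 1 peak per library. Of the strongest 6 only Tada1 scored above 540 (845). The lowest score of the list, 121, was shared by 207 of the 906 regions, those at Mark2 and Zc3h4 among them. Commd3, whose region covers 7 replicate 1 peaks and 1 of replicate 2, scored 190. The other regions with most peaks were a second one at Ski (7 and 1 peaks, 5.78-fold and 9.71-fold) and one at Cdc27, a subunit of the anaphase-promoting complex (6 and 1 peaks, 32.5-fold and 24.7-fold). A listed start of Myl4 lies inside the Cdc27 region, 103 bp from the replicate 2 summit, so this site cannot be given to Cdc27 alone.

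The 2 genes with 3 regions each had 1 strong and 2 ordinary ones. At Eif4g3, a scaffold of translation initiation, the folds in replicates 1 and 2 were 17.7 and 28.5 at chr4:137991883-137996267. The other 2 Eif4g3 regions, both with their summits before the annotated start, had 6.85 and 9.07, and 6.07 and 5.90. At Crebbp, a histone acetyltransferase, the region at chr16:4213704-4216765 had 31.9 and 25.4. Its neighbours had 7.50 and 7.95, and 4.64 and 8.09. The 3 regions of a gene share 1 locus and are not independent.

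Fragment numbers repeated better between the libraries than fold enrichments did. Over the 906 regions, log2 fold had a Pearson r of 0.68 and fold a Spearman rho of 0.55, while fragments at the summit had 0.90 and 0.85. These are descriptions across regions of the same 2 libraries. The fold was higher in replicate 2 at 575 regions (63.5%), with a median ratio of 1.14, and the fragment number at 830 (91.6%), with a median ratio of 1.31. Of the 50 regions with the highest fold in each library, 39 were the same.

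Where the libraries differed most in fold, the background under the region differed too. The fold differed by more than 2-fold at 56 regions (6.18%), 45 of them higher in replicate 2 and 11 higher in replicate 1. At the 45, the median background was 4.39 fragments in replicate 1 and 2.09 in replicate 2, and the fragments at the summit had a median ratio of 1.53 (replicate 2 to replicate 1), above the 1.31 of all regions. At the 11 the background was 1.802 and 4.84, and the fragments had a median ratio of 1. At the 221 regions whose background was within 1% of the lowest of the library in both, rho was 0.84 and 1 region was over 2-fold apart. The background is part of the fold by construction.

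The 4 regions with the largest difference in each direction are given here. Sae1, a subunit of the SUMO-activating enzyme, had 2.97-fold in replicate 1 (15 fragments over a background of 4.39) and 9.07-fold in replicate 2 (27 over 2.09). Ubl3, Nemp1 and Ruvbl1 went the same way, with 5.93 and 17.2, 3.22 and 9.23, and 5.01 and 13.9. Prkab1, a regulatory subunit of the energy sensor AMPK, had 11.8-fold in replicate 1 (32 fragments over 1.802) and 4.56-fold in replicate 2 (30 over 5.80). Psmb7, Rrp15 and Utp14a were also higher in replicate 1, with 12.8 and 5.00, 11.1 and 4.63, and 9.99 and 4.46. At Prkab1 the fragment numbers were nearly equal, so that the lower fold came with the higher background.

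**Figure D2:**
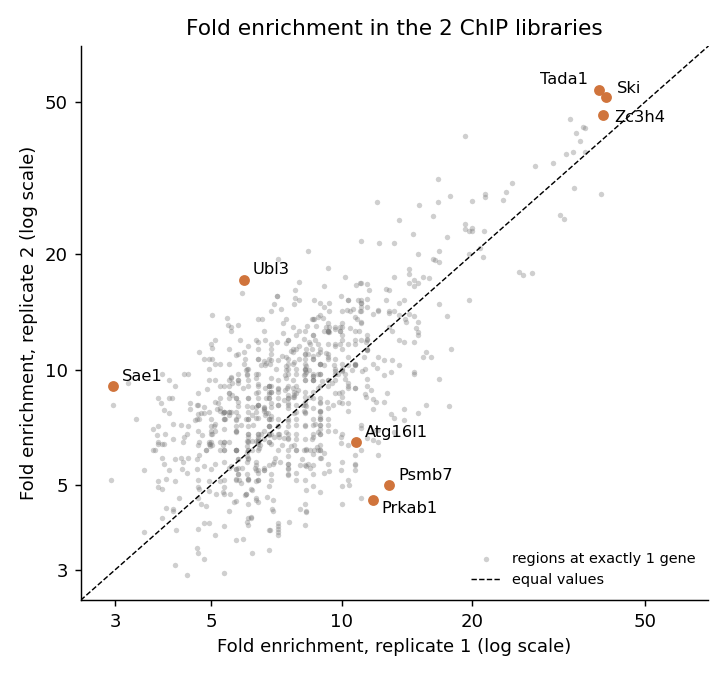
Fold enrichment of each of the 906 regions in replicate 1 (horizontal axis) and replicate 2 (vertical axis), both on log scales, with a dashed line of equal values and 8 regions named. Tada1, Ski and Zc3h4 are high in both, Sae1 and Ubl3 lie above the line with 2.97 and 9.07, and 5.93 and 17.2, and Atg16l1, Psmb7 and Prkab1 lie below it.

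The letters of the promoters could be read for 650 regions (645 genes) that overlap a listed window of their gene, from 250 bases before to 50 after a start. Where a region overlapped several such windows, the one with its start nearest the replicate 2 summit was read. The replicate 2 summit fell inside the window at 569 of the regions (87.5%), a share that this choice can raise. These windows were CpG-rich, with a median of 23 CpG against 13 over all 21020 windows of protein-coding genes, and 87.2% had 15 or more against 47.3%. A match of letters is a description of the window and not a measured binding site.

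TTCG, searched on both strands, was present in 458 of the 650 windows (70.5%) and in 49.4% of all windows. Part of that gap went with CpG content: among windows with 15 or more CpG, 72.5% of those with a region and 64.3% of windows of genes without any region had it. These 2 sets were not matched in base content, with a median of 61% G and C at the regions and 65.7% in the others. The part of base content was not tested. The 16 tetramers that end in CG give a measure that does not rise merely with CpG number. TTCG made up 3.25% of them at the regions and 2.74% over all windows, a ratio of 1.19 that ranked 2nd of 16. The first was TCCG, with 10.7% and 7.401%, a ratio of 1.45. TCCG is part of CTTCCGG, the reverse complement of the ETS heptamer. GACG was almost level with TTCG, with 5.28% at the regions and 4.48% over all windows, a ratio of 1.18. TACG, GTCG and AACG came next, with ratios of 1.12, 1.12 and 1.11. The 2nd rank therefore did not set TTCG apart from GACG.

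The heptamer CCGGAAG was the more frequent mark of these promoters relative to others. It was present in 379 of 650 windows (58.3%, 95% exact interval 54.4 to 62.1), in 11.7% of all windows and in 15% of windows with 15 or more CpG at genes without any region. Windows with 2 or more heptamers made up 19.4% at the regions and 2.08% over all. It was as frequent at regions shared by 2 or more genes, with 62.7% of 466 windows. Of the 20 octamers with the highest ratio to other CpG-rich windows, among 297 present in at least 5% of the 650, 18 held GGAA or its reverse complement TTCC and 0 held TTCG. For example, ACTTCCGG was in 35.8% of windows at the regions and 5.83% of the others. The 5% limit on fixed octamers favours long fixed sequences over a short one such as TTCG. How many of all 297 held GGAA or TTCG was not counted, so the 18 and 0 do not weigh TTCG against the heptamer.

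Of the other promoter letters searched, TTTCGG, a longer form of the Deaf1 core that holds TTCG, was in 12.2% of the windows and 5.71% of all. With 15 or more CpG in both, it was in 13.1% (95% exact interval 10.4 to 16.1) against 7.30% (6.76 to 7.87). The GC box GGGCGG was in 67.4% of the windows and 46.6% of all, but in 70.4% against 78.7% where both had 15 or more CpG. The CpG-rich sets differed in G and C content, as given above, and the part of this in these shares was not tested. CCAAT was in 36.8% and 38.5% of all, and the TATA box TATAAA in 4.15% and 12.7%. The E box CACGTG was in 9.54% and 7.91%, and AAGATGG, part of the YY1 site, in 8.77% and 6.28%.

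The heptamer lay under the summits and TTCG did not gather there. Of 513 heptamers within 150 bp of the replicate 2 summit, 302 (58.9%) were within 25 bp, where 21.1% of the window's bases lie. For TTCG it was 139 of 672 (20.7%). With the replicate 1 summit the shares were 54.5% and 19.8%. At the summit there were 11.0 heptamers per 1000 bases, and in the 20 bp bins more than 70 bp from it there were 0.26 to 0.72 per 1000 before the summit and 0.94 to 1.97 after it. In windows with a heptamer, the nearest one was a median of 17 bp from the summit.

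**Figure D3:**
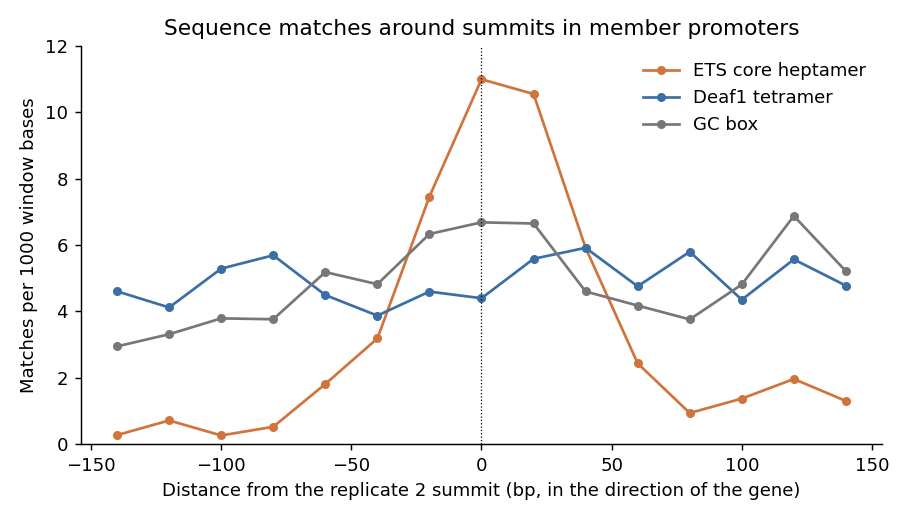
Matches per 1000 window bases (vertical axis) in bins of 20 bp by distance from the replicate 2 summit in bp, in the direction of the gene (horizontal axis), in the 650 promoter windows. The ETS core heptamer rises to 11.0 per 1000 at the summit, whereas the Deaf1 tetramer runs between 3.87 and 5.92 throughout.

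Heptamers also lie near starts, and summits do too. Heptamers in the 650 windows were a median of 27 bp from the start and 22 bp from the replicate 2 summit. In windows of genes without any region they were a median of 41 bp from the start, but there all listed starts were kept and none was chosen by a summit. At the 184 regions with the summit 51 bp or more upstream, the heptamers were a median of 73 bp from the start and 29.5 bp from the summit. TTCG in the same 184 regions was also nearer the summit, at 95.5 bp from the start and 69.5 bp from the summit. In the examples printed above, the Rps21 summit lay at −42 bp from the start in replicate 2, with its heptamers centred at −43 and 19 bp from the summit, and at Dmap1 they were centred 8 bp and 48 bp after it. Rtf2 had heptamers at −136, 22 and 52 bp from its summit, and those of Atg101 lay 276 and 306 bp from its summit, outside the region.

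The very strong regions had another make-up. Of the 24 regions with both folds at 20 or more, 16 had a window. Of these, 15 (93.8%) held TTCG, 7 (43.8%) held 3 or more, and 1 (6.25%) held the heptamer. The replicate 2 summit lay inside the window at only 10 of the 16. For the other windows (Zc3h4, Yipf6 and Ptbp2 among them) the letters read are not those under the summit. Of these 10, all held TTCG, 6 held 3 or more and 1 held the heptamer. Among the 536 regions with a fold under 10, 70.5% held TTCG, 17.5% held 3 or more, and 60.1% held the heptamer. The 98 regions in between were like the latter, with 66.3%, 25.5% and 57.1%. The limit of 20 was chosen after these values had been seen. With both folds at 15 or more (35 windows), 77.1% held TTCG, 34.3% held 3 or more and 17.1% held the heptamer. B4gat1, just under the limit of 20 with 19.99-fold in replicate 1 and 27.5-fold in replicate 2, held neither sequence. Its summits lay 11 bp (replicate 1) and 10 bp (replicate 2) after the listed start, inside the window.

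**Figure D4:**
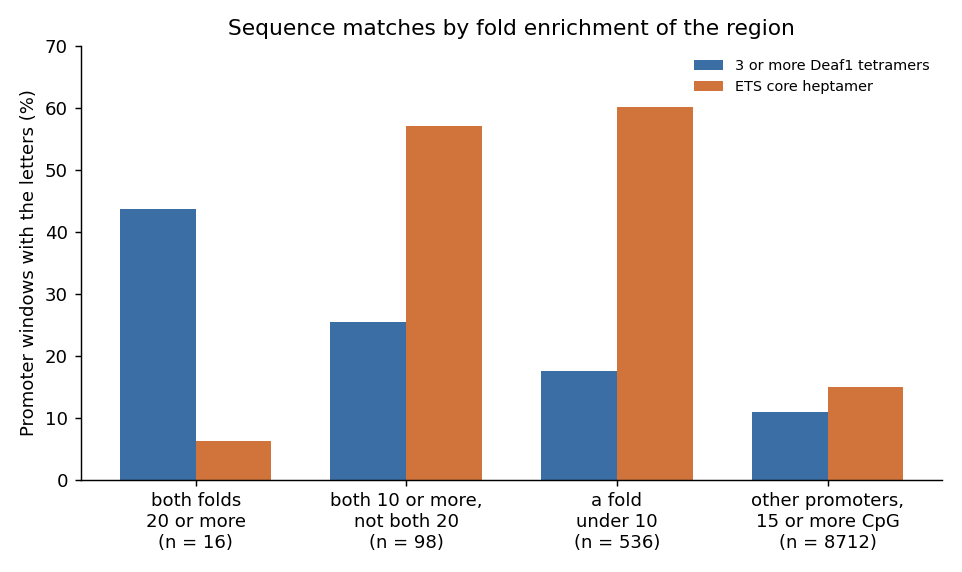
Share of promoter windows (vertical axis, %) with 3 or more Deaf1 tetramers and with the ETS core heptamer, for regions in 3 classes of fold enrichment and for CpG-rich promoters of genes without any region. In the strongest class, 43.8% hold 3 or more tetramers and 6.25% the heptamer, against 17.5% and 60.1% in the weakest.

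Width went with this split as much as fold did. The 34 windows at regions wider than 1 kb held 3 or more TTCG in 35.3% and the heptamer in 11.8%. At the 616 of 1 kb or less the shares were 18.5% and 60.9%. Among narrow regions with both folds at 10 or more (83 windows) the heptamer was as frequent as in the rest, at 63.9%. The strongest windows were also richer in CpG, with a median of 33 against 22 in those with a fold under 10. The part of CpG content in the number of TTCG was not tested within so few windows.

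Clusters of TTCG are visible in the printed sequences. The Commd3 window held 6 TTCG and no heptamer, and 5 of the 6 begin between −136 and −73 bp from the start, on both sides of the replicate 2 summit at −117 bp and all upstream of the replicate 1 summit at −59 bp. The Tmem80 window held 7 TTCG, all within the printed 200 bases and centred between −226.5 and −71.5 bp from the replicate 2 summit. Mark2 had 5, with the nearest 47.5 bp after the replicate 2 summit. Creb1 had 4, Yipf6 had 5 (its summit lay outside the window) and Rpl28, a protein of the large ribosomal subunit, had 4, each without a heptamer. A pair of TTCG within 20 bp of each other was present in 7 of the 16 strongest windows (43.8%), in 12.1% of those with a fold under 10 and in 5.82% of all promoter windows. Among windows with 15 or more CpG at genes without any region, 8.08% held such a pair. The Ptbp2 window held neither sequence, with 21.3-fold and 28.8-fold enrichment at the region. Both Ptbp2 summits lay outside that window, so the letters under them were not read.

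Over the 650 windows, median fold did not rise with the number of heptamers. The share with a score of at least 540 was higher with more heptamers, but the highest class is small (23 windows) and the rise was not tested. Median folds for 0, 1, 2 and 3 or more heptamers were 7.85, 7.50, 7.43 and 7.70 in replicate 1 and 8.46, 8.57, 8.42 and 7.81 in replicate 2. The shares with a score of at least 540 were 38.4%, 42.7%, 43.7% and 52.2%, and summits with 3 or more heptamers (23 windows) had a median of 28 and 37 fragments in replicates 1 and 2, against 24 and 32 with none. For TTCG they were 7.85, 7.15, 7.80 and 8.23 in replicate 1 and 8.46, 7.76, 9.28 and 9.23 in replicate 2, and the shares 42.2%, 35.2%, 47.1% and 43.7%. Of the 650 windows, 256 held both sequences, 123 the heptamer only, 202 TTCG only and 69 neither.

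The lists with the highest shares were of genes that all cells use. The lists of muscle genes had no region, but they are short (8 to 14 genes each). At the share of all genes, each would hold less than 1 gene with a region. Of all 21631 protein-coding genes, 4.04% had a region at exactly 1 gene end, and 7.07% had any region at an end. The lists were chosen with earlier results of these data known. Of 81 cytosolic ribosomal protein genes, 26 (32.1%) had a region at exactly 1 gene end, the highest share of the lists examined. Rpl28 was the strongest (20.8-fold in replicate 1 and 20.7-fold in replicate 2, 93 and 100 fragments), followed by Rps21 (11.6 and 16.2) and Rpl27 (10.4 and 12.8). Their summits lay at −91, −42 and 10 bp from the start in replicate 2. The median folds of the family, 7.06 and 8.33, were close to those of all 906 regions.

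Genes of protein synthesis beyond the ribosome were also frequent. Among 55 genes listed as translation initiation factors, which include regulators such as Eif2ak1 and Eif4ebp2, 12 (21.8%) had a region. Eif4g3, Eif4a3, an RNA helicase of the exon junction complex (14.2 and 18.3), and Eif3l (15.4 and 10.8) were the strongest. Aminoacyl-tRNA synthetases, which charge tRNAs, had 8 of 35 (22.9%), and Rars (14.6 and 17.2) led them. Mitochondrial ribosomal proteins had 13 of 78 (16.7%), rising to 26 when regions shared with a neighbouring gene were counted. Mrpl20, at 8.80 and 13.7, and Mrps18a, at 9.99 and 9.94, were among the strongest. DEAD/DEAH RNA helicases had 12 of 52 (23.1%), with Ddx18 at 9.99 and 11.3.

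Protein breakdown and transcription showed similar shares. Of 47 proteasome genes (subunits, activators and assembly chaperones) 10 (21.3%) had a region, 2 of them at the chaperone genes Psmg1 and Psmg3. The strongest, Psmd7 (9.99 and 8.46), Psmb2 (7.50 and 10.0) and Psmc1 (8.92 and 8.20), were of ordinary height. Ubiquitin E2 enzymes had 5 of 31 (16.1%). Ube2m, which conjugates the ubiquitin-like protein NEDD8, was far above its family at 36.4 and 36.9, and Ube2j2 had 14.3 and 16.8. RNA polymerase subunits had 6 of 27 (22.2%), led by Polr2k (12.8 and 16.1). Mediator, the complex that links factors to RNA polymerase II, had 5 of 30 (16.7%). Its member Med6 differed between the libraries, at 7.13 and 19.4, whereas Med12 had 14.3 and 13.97. Nucleoporins had 4 of 22 (18.2%), with Nup133 at 19.7 and 15.2.

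Autophagy genes had 7 of 50 (14%), or 12 (24%) with shared regions. Atg101 had 4.47-fold in replicate 1 and 7.87-fold in replicate 2, over a background of 5.27 and 3.06 fragments, and its region ended 246 bp before the start. Becn1, a subunit of the lipid kinase complex that nucleates autophagosomes, had 4.68 and 5.998. Atg5, part of the conjugation machinery, had 6.69 and 7.70, with the summit 35 bp and 28 bp after the start. None of these 3 reached a score of 540.

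The other 4 autophagy genes did reach it. Atg16l1, which binds Atg5, had 10.8 in replicate 1 (30 fragments over 1.87) and 6.47 in replicate 2 (43 over 5.80), so that the library with more fragments had the lower fold. Tmem41b, a lipid scramblase of autophagosome formation, was the strongest at 10.7 and 12.6, with a score of 774. Rab7, a GTPase of late endosomes and lysosomes, had 8.21 and 10.0 with its summit at −8 and −9 bp from the start. Wdr45b, a phosphoinositide-binding protein, had 6.42 and 9.07. No autophagy gene was among the 146 regions with both folds at 10 or more except Tmem41b.

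Several lists had no region of this kind. These were the 11 myogenic regulators (such as Myod1 and Pax7), 8 FOXO and atrophy genes, 27 interferon and innate immune genes, 21 KCTD genes, 39 Hox genes, 44 collagens, 14 myosin heavy chains, 1106 olfactory receptors and 353 vomeronasal receptors. Lists of 8 to 21 genes would hold less than 1 gene at the 4.04% of all genes. With regions shared by 2 or more genes counted, 2 of the 21 KCTD genes (9.52%) had one, against 7.07% of all genes. Of the 353 vomeronasal receptors, 1 had such a shared region. Solute carriers had 6 of 347 (1.73%) and TMEM genes 7 of 235 (2.98%), of which Tmem80 and Tmem41b are described above. Zinc finger genes named Zfp had 30 of 394 (7.61%). Across chromosomes, the share of genes ran from 1.14% on X (11 of 966) to 6.83% on chromosome 15 (53 of 776).

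**Figure D5:**
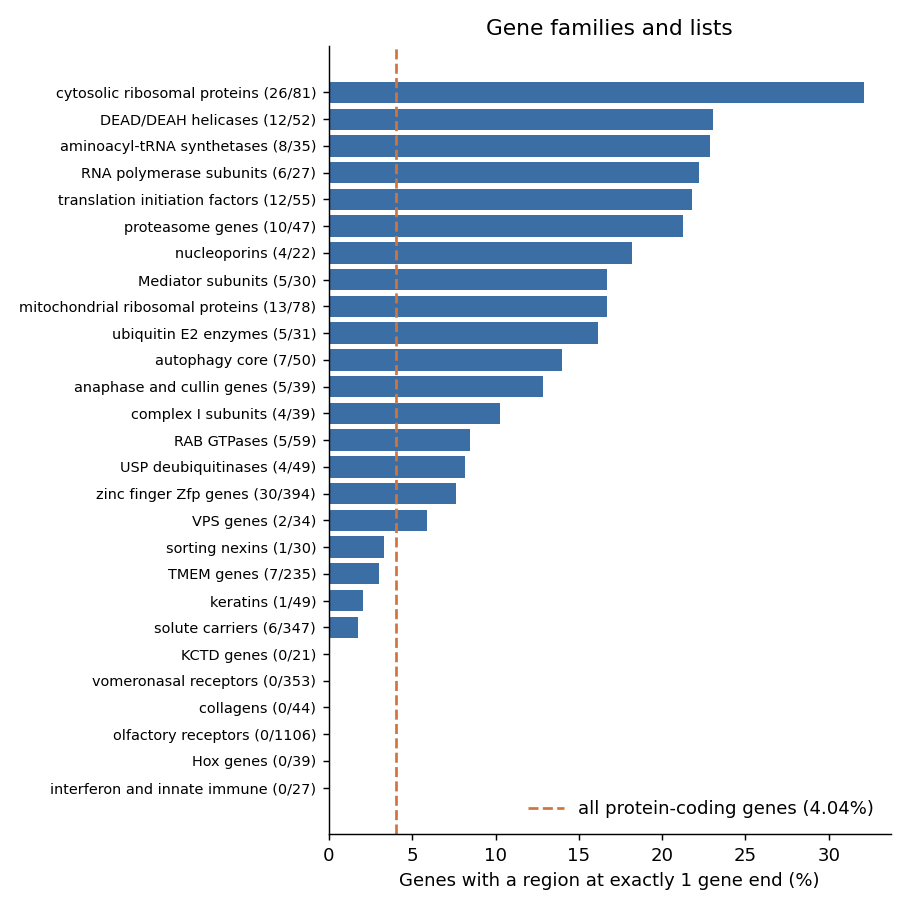
Share of genes with a region at exactly 1 gene end (horizontal axis, %) in the gene lists with at least 20 genes (vertical axis, with numbers of genes), and a dashed line at 4.04%, the share of all protein-coding genes. Cytosolic ribosomal proteins are the highest at 32.1%, and 6 lists are at 0.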

How the data were processed

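The deposited files were a peak list for each of the 2 Deaf1 ChIP libraries and 1 combined list. Files of the 2 inputs' own values were not used here. Reads were processed with FastQC 0.11.8, BWA 0.7.17-r1198 and MACS2 2.1.2 on mm10, per the submitters' processing notes. The labels' protocols describe formaldehyde fixation and also the term native ChIP, and this was not settled. In the deposited peak lists, fold is the ratio of ChIP fragments to the background around a summit, and p is a −log10 value. The deposited score of the combined list is on the scale of the IDR program. Its other 6 columns of values for single samples were not used.

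A region's strength is its strongest overlapping peak (at least 1 bp) in each list. Fragments and background were recovered from fold and p by the MACS2 formula, which returned −log10 p to within 2.3e-05. Single summits of 24 or 32 fragments carry wide counting error, and whether duplicates were removed is not given in the sources used here. Recovery, classification and letter search each returned 100% of 500 simulated summits, 200 regions and 300 planted letters. Gene spans and promoters are RefSeq GRCm38.p6. Computation used Python 3.11.15, pandas 2.3.3, numpy 2.4.6, SciPy 1.17.1 and matplotlib 3.10.9.

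With 1 group of 2 libraries no test was made. Named genes were the 6 strongest, the 6 with the highest score, 4 with the largest difference in each direction, autophagy genes, Deaf1, Pik3c3, Atg16l1 and Eif4g3 where they had a region of this kind (Deaf1 and Pik3c3 did not), the 3 with most peaks, 3 on each side of the limit, up to 3 per family and those whose promoter is printed. Alternatives changed the window, the score or q limit, the peak summary, the summit and the library. Members and lists were chosen with earlier results of these data known.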

Additional observations from a re-analysis of the deposited data

How the results depend on the processing

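The choices about CCGGAAG were added after seeing the data. A score of at least 540 left 367 of the 906 regions, with a share at the start of 99.6%, median folds of 9.35 and 11.0 in replicates 1 and 2, and a median summit distance from the start of 36.5 bp in place of 48.5. The replicate 1 summit gave 46 bp. Taking the peaks of 1 library under the same rule gave 1004 regions without replicate 2 and 1574 without replicate 1. Using only the bases before the start lowered TTCG to 62.8% (42.9% of all promoters) and CCGGAAG to 46.5% (9.09% of all). Requiring the summit inside the window raised CCGGAAG to 63.1%. Of the 32 alternatives, 22 kept their result within its counting interval or spread or, for numbers of regions, within 1.5 times. A −log10 q of at least 5 in both libraries left 800 regions. A window of 500 bp gave 904 regions, of which 851 were the same. No paired analysis was possible because the inputs have no values here and the ChIP lists form 1 group. At a median of 24 or 32 fragments, single regions cannot be ranked closely.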
